A study of Mus musculus with 4 samples.

Results

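A set of 8 genes of extracellular ATP signaling and the inflammasome were examined in a map of p53 DNA binding in murine hematopoietic progenitor cell lines. They comprised the ATP-gated channel genes *P2rx7*, *P2rx4* and *P2rx1*, the pannexin channel gene *Panx1*, the inflammasome sensor *Nlrp3*, the protease *Casp1* and the cytokine genes *Il1b* and *Il18*. Each p53 peak whose centre lay within 100 kb of a transcription start site (TSS) of 1 of these genes in the GENCODE M1 annotation of mm9 was taken, which gave 8 of the 7384 deposited peaks. The genes were chosen by pathway and not by a threshold on a measured value, but with earlier results of these data known.

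The p53 map came from 3 libraries, namely p53 ChIP-Seq in Ba/F3 cells that were untreated or given 3 Gy of irradiation 3 h earlier, and in HPC7 cells that were untreated, with 1 library per condition. A further library, for the active chromatin mark H3K27ac in irradiated Ba/F3 cells, was not analysed here. Ba/F3 is an IL-3-dependent pro-B cell line and HPC7 a multipotent progenitor line kept in stem cell factor, and the study chose both because their p53 is wild type. Both lines, untreated and irradiated alike, stably carried triple-FLAG-tagged MYSM1, a histone deubiquitinase, under puromycin selection.

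The deposited data are 1 list of intervals, each 100 bp wide, with a number per peak and no read count, enrichment or p-value. The list has no column for a single library, so whether a peak was present in Ba/F3 cells, in HPC7 cells or in both was not analysed here, and the list gives no depth or signal for any peak. The peak number is the row on the study's heatmap, which runs from the largest gain of p53 binding after irradiation to the largest loss. The study divided that order into Group I (binding increased), Group II (little change) and Group III (binding reduced). A number therefore gives a rank and not an amount. With 1 library per condition there is no replicate spread, and no p-value is given anywhere below. A peak list also holds no marker of cell type, so the labelled identity of the lines could not be checked in it.

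Cells release ATP when they are damaged, and pannexin channels are 1 route by which it leaves. Outside the cell ATP opens the P2X channels, which let in calcium and sodium. P2X7 needs higher ATP than its relatives, and in macrophages its opening drives potassium out of the cell, a signal that activates the NLRP3 inflammasome. NLRP3 then recruits caspase-1 through an adaptor, and caspase-1 cuts pro-interleukin-1β and pro-interleukin-18 into their active forms. p53 is a transcription factor stabilized by DNA damage that binds as a tetramer to a pair of 10-base half-sites. In the search used here a p53 site was 20 bases with no spacer, with at most 3 mismatches to the consensus p53 site and with the core C and G (positions 4 and 7) kept in each half-site, and it was counted at a peak when it lay within 100 bp of the peak centre.

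The 5 peaks that the results turn on are printed first, from the mm9 plus strand, 5′ to 3′. They are the peaks nearest to *P2rx7*, *Panx1*, *Il1b*, *Nlrp3* and *P2rx1*, and capitals mark the p53 site. The site at the *Nlrp3* peak runs past the end of the interval, so that 15 of its 20 bases are shown.
*P2rx7*, chr5:123094421-123094520: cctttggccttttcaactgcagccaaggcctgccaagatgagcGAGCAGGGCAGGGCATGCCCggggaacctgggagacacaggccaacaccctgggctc
*Panx1*, chr9:14841497-14841596: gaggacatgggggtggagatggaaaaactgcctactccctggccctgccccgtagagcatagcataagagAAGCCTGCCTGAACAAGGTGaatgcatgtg
*Il1b*, chr2:129204499-129204598: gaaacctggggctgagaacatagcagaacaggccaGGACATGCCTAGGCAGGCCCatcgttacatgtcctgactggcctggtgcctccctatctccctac
*Nlrp3*, chr11:59377276-59377375: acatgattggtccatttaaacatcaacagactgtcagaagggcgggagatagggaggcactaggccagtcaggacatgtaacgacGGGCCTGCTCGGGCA
*P2rx1*, chr11:72754068-72754167: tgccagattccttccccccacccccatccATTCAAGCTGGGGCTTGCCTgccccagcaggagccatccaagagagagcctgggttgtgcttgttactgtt

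The sites themselves are set out next, so that they can be compared base by base. Here capitals mark the bases that do not match the consensus p53 site, and each is given on the plus strand of mm9 with its position. The 3 *Nlrp3* sites are listed by the number of their peak. The *Casp1* sequence is the best match at that peak and is not a site under the definition above, because its single mismatch falls on the core G of the second half-site.
*P2rx7*, chr5:123094464-123094483: gagcaGgGcAgggcatgccc
*P2rx1*, chr11:72754097-72754116: aTTcaagctGgggcttgcct
*Panx1*, chr9:14841567-14841586: aagcCtgcctgaacaagGtG
*Nlrp3*, peak 2913, chr11:59377361-59377380: gggcCtgctcgggcaCgtcc
*Nlrp3*, peak 1080, chr11:59407904-59407923: TgacaagcccTaacatgttA
*Nlrp3*, peak 3667, chr11:59448991-59449010: TaacaagtctgggcaagtGG
*Casp1*, chr9:5372027-5372046: gaacatgtctgaacatAtcc
*Il1b*, chr2:129204534-129204553: ggacatgcctaggcaGgccc
*Il18*, chr9:50490106-50490125 (peak outside the limit): gagcttgcccaggcaagAcA

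Of the 8 genes, 7 had a p53 peak within 100 kb of a TSS, and *Il18* had none. This is a common property, since 57.8% of the 22367 annotated protein-coding genes also had a peak within 100 kb. Within 10 kb of a TSS there were 3 genes, *P2rx7*, *Panx1* and *Il1b*, against 15.6% of all protein-coding genes. Within 1 kb there was 1, *P2rx7*, against 6.13%. Between these limits the count stayed at 4 genes within 25 kb and within 50 kb, beside 26.5% and 40.4% of protein-coding genes, and at 200 kb all 8 had a peak, beside 75.1%. The nearest peaks of the remaining genes lay between 21067 bp (*Nlrp3*) and 106720 bp (*Il18*) away, beside a median of 74166 bp over all protein-coding genes. No share of this kind was tested, since the genes are 8 members of 1 pathway and not a sample of the genome.

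**Figure D1:**
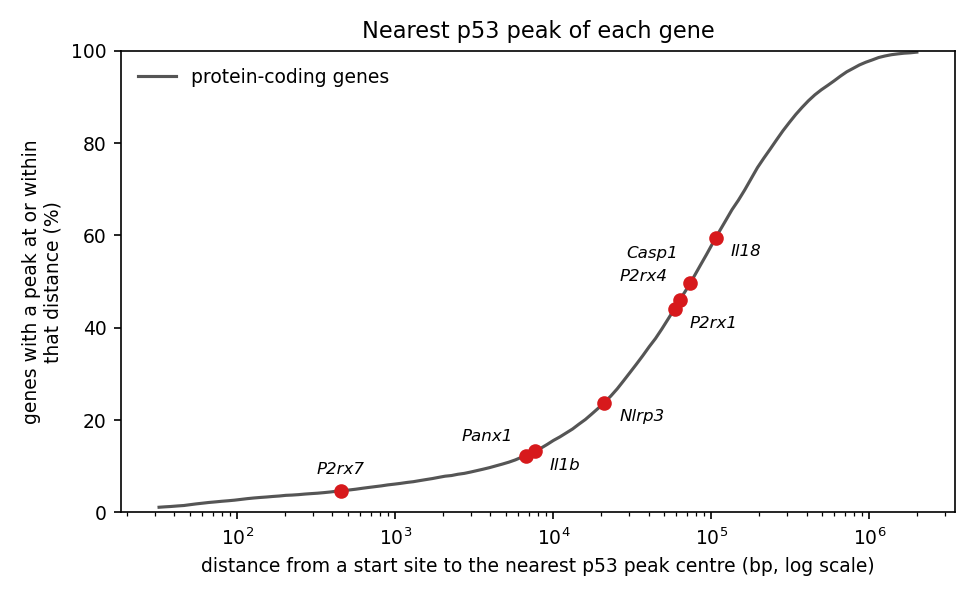
Share of protein-coding genes (y axis, percent) with a p53 peak centre at or within a given distance of a TSS (x axis, bp, log scale), with the 8 genes as red points on the curve. *P2rx7* lies lowest at 452 bp, *Panx1* (6695 bp) and *Il1b* (7673 bp) follow, and the other 5 genes lie from 21067 to 106720 bp.

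*P2rx7* (ENSMUSG00000029468.10, chr5:123093920-123141441, plus strand) encodes the P2X7 channel. Its peak, number 5644 of 7384 and thus 76.4% down the list in Group I, was centred 452 bp from the nearest of its 4 annotated TSSs. The centre lay 550 bp downstream of the outermost TSS, in intron 1 of 4 of the 5 annotated transcripts. Only 4.67% of protein-coding genes had a peak as near as this. No other peak lay close, the next one upstream being 141574 bp from the *P2rx7* TSS, and the whole 1 Mb on either side held 13 peaks against a median of 8 for protein-coding genes. The peak was a sequence with no other copy in the genome, with a GC content of 60.2% over 200 bp against a median of 48.8% over all peaks.

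The p53 site at *P2rx7* was centred 3.5 bp from the peak centre. All 3 of its mismatches lay in the first half-site, and its second half-site matched the consensus at every position. The 100 kb on either side of the *P2rx7* TSSs held 12 such sites, every one of them with 3 mismatches, and this was the single one with a peak. Of those 12 sites, 3 had 1 half-site without mismatch, and the nearest of the others, at chr5:123097126-123097145 (gaacttgctcTaacCagGct, capitals marking mismatches), lay 3117 bp from the TSS without a peak. Across the genome, 1.84% of the 15454 sites with 3 mismatches in the same half-site had a peak.

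*P2rx4* (ENSMUSG00000029470.8, chr5:123157593-123179747, plus strand), the neighbour of *P2rx7* on the same strand, encodes the P2X4 channel. It had no peak of its own. Its nearest peak was the same peak 5644, 63123 bp upstream of its TSS, and that peak was 452 bp from *P2rx7*. The next peak downstream of *P2rx4* was 186619 bp from its outermost TSS, and it was beyond the limit from every annotated TSS. Of the 13 p53 sites within 100 kb of *P2rx4*, 1 had a peak, and the best of them, with 2 mismatches at chr5:123238849-123238868 (aggcatgtccTgCctagccc), had none. The peak could thus be assigned to *P2rx7* by distance, and a link between it and *P2rx4* was not tested.

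**Figure D2:**
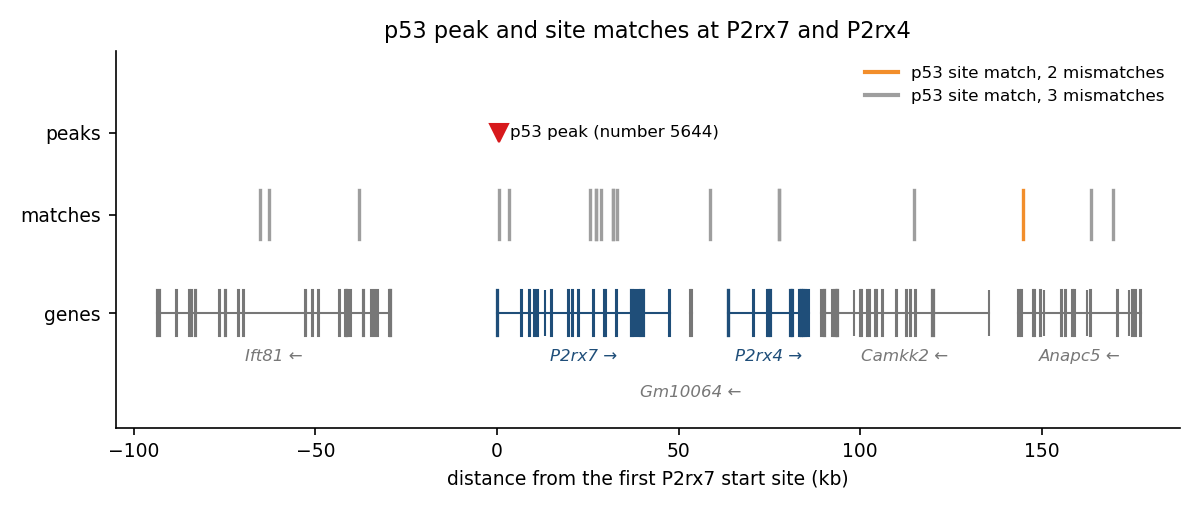
Map of the *P2rx7* and *P2rx4* genes with the p53 peak and the p53 sites around them, with distance from the outermost *P2rx7* TSS along the x axis in kb. The single peak lies 550 bp inside the start of *P2rx7*, and the other p53 sites of the region have no peak.

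*P2rx1* (ENSMUSG00000020787.8, chr11:72812605-72828702, plus strand) encodes the P2X1 channel, best known from platelets and smooth muscle. Its peak, number 1651 in Group I (22.4% down the list), lay 58488 bp upstream of the TSS between genes. The gene with the closest TSS was *Zzef1*, 19772 bp away, and *Atp2a3*, which encodes an endoplasmic reticulum calcium pump, was 20554 bp away. As at *P2rx7*, the 3 mismatches of the site were all in the first half-site and the second matched throughout. A peak as near as this was found for 44.1% of protein-coding genes, and 1 of 17 p53 sites within 100 kb of *P2rx1* had a peak.

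*Panx1* (ENSMUSG00000031934.7, chr9:14809605-14849922, minus strand) encodes pannexin 1, the ATP release channel. Its peak, number 5423 in Group I (73.4% down the list), lay 6695 bp downstream of the nearest TSS and 8376 bp downstream of the outermost one, in intron 1 of 3 of the 4 transcripts. No gene had a TSS closer to the peak than *Panx1*. Its site had 3 mismatches and was centred 30.5 bp from the peak centre, farther than at *P2rx7*. A second match with 3 mismatches (aTgcatgcAcaCacatgttc) lay just outside the interval at chr9:14841608-14841627. Both matches were among the 10 within 100 kb of *Panx1*, and the other 8 had no peak.

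*P2rx7* and *Panx1* were the only genes of the set to which a peak within 100 kb was closest among all annotated genes, and with protein-coding genes alone *Il1b* joined them. Each of the other 5 peaks lay closer to a gene outside the set. The peaks of *P2rx7* and *Panx1* stood at similar places in the list, at 76.4% and 73.4%, which are ranks of a smaller gain in p53 binding than those of the *P2rx1*, *Nlrp3* and *Il1b* peaks.

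*Nlrp3* (ENSMUSG00000032691.7, chr11:59355070-59380458, plus strand), which encodes the sensor of the inflammasome, had 3 peaks within 100 kb, the most of any gene of the set. The nearest, number 2913 in Group I, was 21067 bp downstream of a TSS, inside the gene and in an intron of the annotated transcripts that span it. The second, number 1080, was 51659 bp downstream and the third, number 3667, 92762 bp downstream, both between genes. All 3 were nearer to the TSS of an olfactory receptor gene, *Olfr222* at 7990 bp, *Olfr223* at 4247 bp and *Olfr225* at 22552 bp. Peak 1080 had the highest place of the 8 peaks, 14.6% down the list. There were 20 peaks within 1 Mb of *Nlrp3*, beside a median of 8 and a highest decile of 17 over protein-coding genes.

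**Figure D3:**
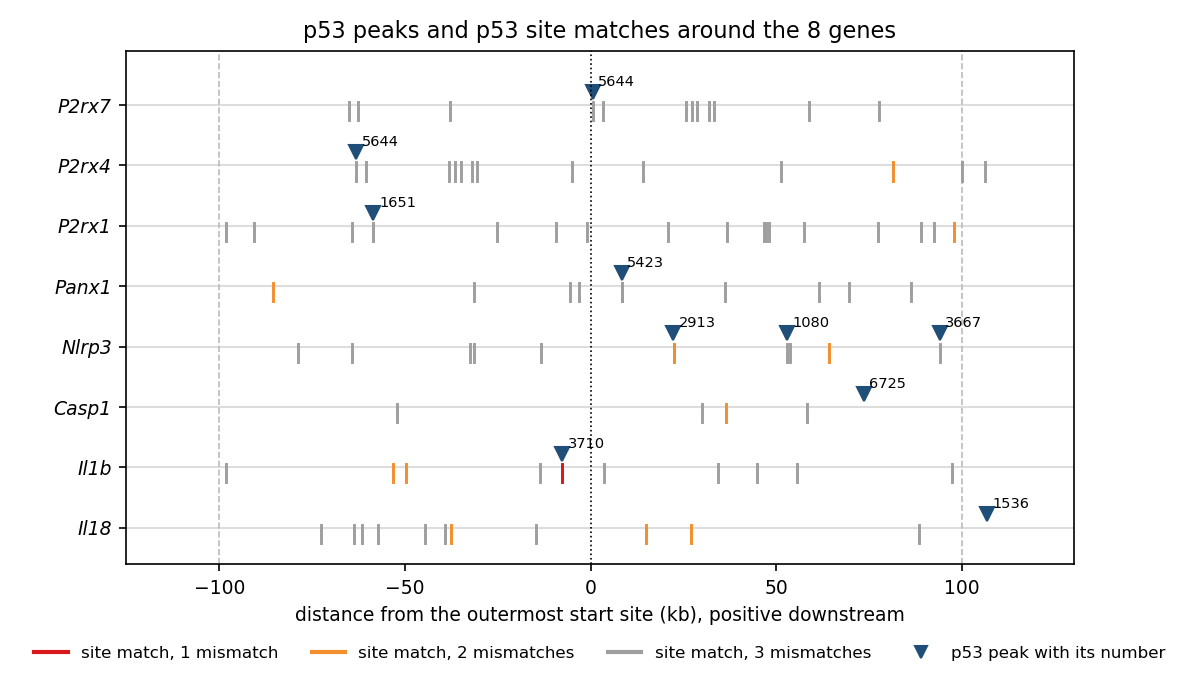
Positions of p53 peaks around the TSS of each of the 8 genes (x axis, distance from the outermost TSS in kb, positive downstream), with p53 sites as ticks colored by mismatches. Peaks fall within 10 kb for *P2rx7*, *Panx1* and *Il1b*, *Nlrp3* has 3 peaks on its downstream side, and *Il18* has its nearest peak 106720 bp away, past the 100 kb limit.

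The sites at the 3 *Nlrp3* peaks had 2, 3 and 3 mismatches in the order of their distance. At peak 2913 each half-site carried 1 mismatch, and a second match (gggcaCgtccTggcCtgttc) overlapped it at chr11:59377371-59377390. Together with *Panx1* and *Il1b*, *Nlrp3* thus had more than 1 match at a peak. Of the 11 p53 sites within 100 kb of *Nlrp3*, 4 had a peak.

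*Casp1* (ENSMUSG00000025888.5, chr9:5298517-5307265, plus strand) encodes caspase-1. Its peak, number 6725, was 91.1% down the list and the single peak of the set in Group II, where binding changed little after irradiation. It lay 73523 bp downstream of the TSS, in the untranslated part of exon 11 of the neighbouring gene *Casp12* in 2 of its 5 transcripts. The closest TSS was that of *Casp12*, 26536 bp away, with *Casp4* (48692 bp), whose product senses cytosolic lipopolysaccharide in the non-canonical inflammasome, also nearer than *Casp1*. There were 5 peaks within 1 Mb, beside a median of 8 and a lowest decile of 2 over protein-coding genes, and the next one upstream was 486727 bp away.

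This was the single peak of the 8 without a p53 site under the definition used. When the core C and G were not required, the best match there had 1 mismatch and was centred 3.5 bp from the peak centre. A match that good without the core requirement was found at 24.9% of all peaks and at 0 of the 7384 windows 10 kb upstream of them, which allows a share of up to 0.0406%. With the core C and G kept, 24.0% of all peaks had a match that good. Most of the 24.9% thus had a match with an intact core, unlike the one at *Casp1*. The peak had the lowest GC content of the set, 27.4% over 200 bp, and contained a stretch of 32 bases that occurred again within the peak, whereas in the other 7 peaks the longest such stretch was 5 to 8 bases.

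*Il1b* (ENSMUSG00000027398.7, chr2:129190306-129196875, minus strand) encodes interleukin-1β. Its peak, number 3710 in Group I (50.2% down the list), lay 7673 bp upstream of the TSS in intron 1 of the pseudogene *Gm14045*, whose own TSS was 584 bp away. *Il1b* was the closest protein-coding gene. The site was the best of the set, with 1 mismatch and a first half-site that matched throughout, centred 4.5 bp from the peak centre. A second match with 2 mismatches (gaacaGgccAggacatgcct) overlapped it at chr2:129204524-129204543.

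The *Il1b* peak and *Nlrp3* peak 2913 were copies of 1 repeated sequence. They aligned over 160 bp with 93.75% identity, on opposite strands. The *Il1b* peak had 947 other copies in the genome, of which 932 (98.4%) had a p53 peak of their own, and the *Nlrp3* peak had 322, of which 317 (98.4%) did. Reads from such copies can be hard to place, and how far this touched either peak was not tested. The peaks of *P2rx7*, *P2rx1*, *Panx1* and *Casp1* and *Nlrp3* peak 3667 had no other copy. *Nlrp3* peak 1080 had 1, without a peak.

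*Il18* (ENSMUSG00000039217.5, chr9:50383378-50389942, plus strand), which encodes interleukin-18, was the gene without a peak inside the limit. Its nearest peak, number 1536 in Group I, was 106720 bp downstream in an intron of *Dixdc1*, a gene of Wnt signaling, whose TSS was 2401 bp away. The next one upstream was 124848 bp from *Il18*. The limit of 100 kb fell between this peak and the farthest *Nlrp3* peak at 92762 bp. All 11 p53 sites within 100 kb of *Il18* were without a peak, and 59.5% of protein-coding genes had a peak as near as the one at *Dixdc1*.

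A p53 site was found at 7 of the 8 peaks, with 1 mismatch at 1 of them, 2 mismatches at 1 and 3 mismatches at 5. Over all peaks, 54.5% had a site, and 1.03% of the windows 10 kb upstream did, as did 0.799% of windows 10 kb downstream, a control added after the data were seen. None of the 8 upstream or 8 downstream windows of these peaks had one, although 8 windows allow a share of up to 37.5%. Sites with at most 1 mismatch were found at 24.0% of all peaks and sites with at most 2 at 40.8%. The 7 peaks with a site were those in Group I, where 59.6% of all peaks had one, and the *Casp1* peak was in Group II, where 35.6% did. With a spacer of 0 to 13 bases allowed, the count stayed at 7, while the share of all peaks rose to 72.7%. The centre of the site lay within 10 bp of the peak centre at 3 of the 7 peaks (*P2rx7*, *Il1b* and *Nlrp3* peak 1080) and within 20 bp at 5, beside 54.3% and 77.0% of all peaks with a site. A half-site without mismatch was part of the site at 3 of the 7 peaks (*P2rx7*, *P2rx1* and *Il1b*), beside 64.2% of the 4021 peaks with a site. Taken anywhere within 100 bp of the centre, such a half-site was present at 4 of the 8 peaks, *Casp1* included, beside 52.5% of all peaks.

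**Figure D4:**
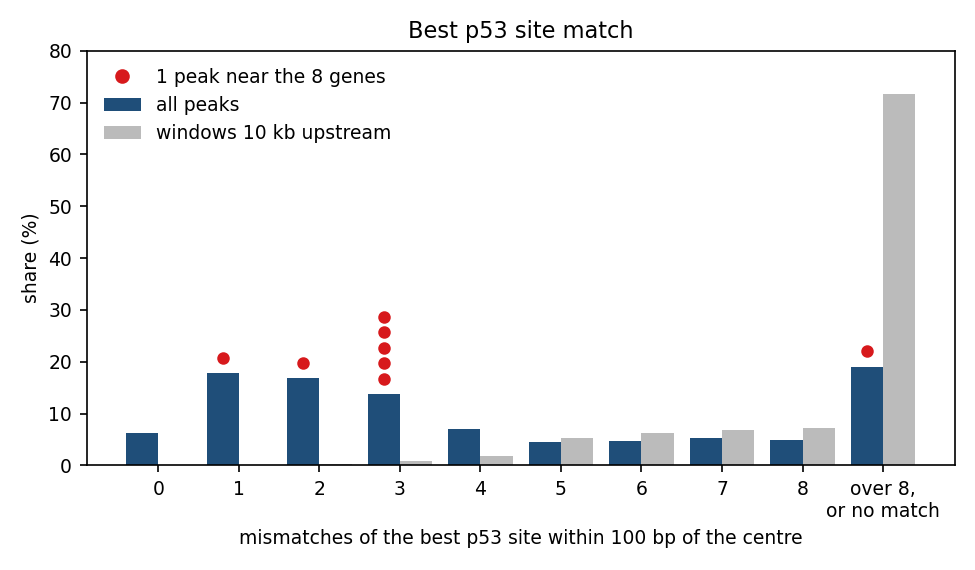
Number of mismatches of the best p53 site (x axis) at all peaks and in windows 10 kb upstream, as percent (y axis), with the peaks of the gene set marked. Of all peaks 13.7% had a best site with 3 mismatches, the class that holds 5 of the 8 marked peaks, against 0.826% of the upstream windows.

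Sites with 3 mismatches are frequent in the genome and seldom had a peak. Of 85805 such sites, 1347 (1.57%) had a peak within 100 bp, whereas 9.0% of the sites with 2 mismatches (1891 of 21007), 35.2% of those with 1 and 71.5% of those with none did. The repeated sequence of the *Il1b* peak, which had 932 other copies with a peak, was not left out of these shares. How far the shares rest on it was not tested. Counted once each, the regions within 100 kb of the 8 genes held 80 sites with at most 3 mismatches. A peak was present at 10 of them, and 70 were without one. The 10 belonged to 7 peaks, since the *Panx1*, *Il1b* and nearest *Nlrp3* peaks held a pair of matches each. By mismatches, the 1 site with 1 mismatch (*Il1b*) had a peak, as did 2 of 12 with 2 and 7 of 67 with 3. The site with 1 mismatch and both of those with 2 mismatches lay in the copies of 1 repeated sequence at *Il1b* and *Nlrp3*. The second match at the nearest *Nlrp3* peak, with 3 mismatches, lay in it too. Over the whole genome 4.59% of the sites with at most 3 mismatches had a peak, beside the 10 of 80 here.

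By annotation, 2 of the 8 peaks were within 1 kb of a TSS of any gene (*P2rx7*, and the *Il1b* peak through *Gm14045*). Of the others, 1 was in an exon (*Casp1*, in *Casp12*), 2 were in an intron (*Panx1* and *Nlrp3* peak 2913) and 3 were between genes. Over all peaks these classes held 18.6%, 2.23%, 33.9% and 45.3%. In all, 5 of the 8 centres lay inside an annotated gene, beside 47.2% of all peaks.

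In the order of the list, 7 of the 8 peaks were in Group I, which holds 89.9% of the list, and the remaining one, at *Casp1*, was in Group II, which holds 2.17%. Their numbers ran from 1080 to 6725 with a median of 3688.5, and the median of the list is 3692.5. Of the 8, 4 stood above the middle of the list and 4 below it, so the set was spread over the order as a whole. When the list was cut into 10 equal parts, the share of peaks with a p53 site was 45.9% in the first, 70.5% in the ninth and 8.12% in the last. The *Casp1* peak stood early in that last part, in which 78.6% of peaks were within 1 kb of a TSS of any gene. The *P2rx7* peak, itself within 1 kb of a TSS, stood in the eighth, where 10.7% were.

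**Figure D5:**
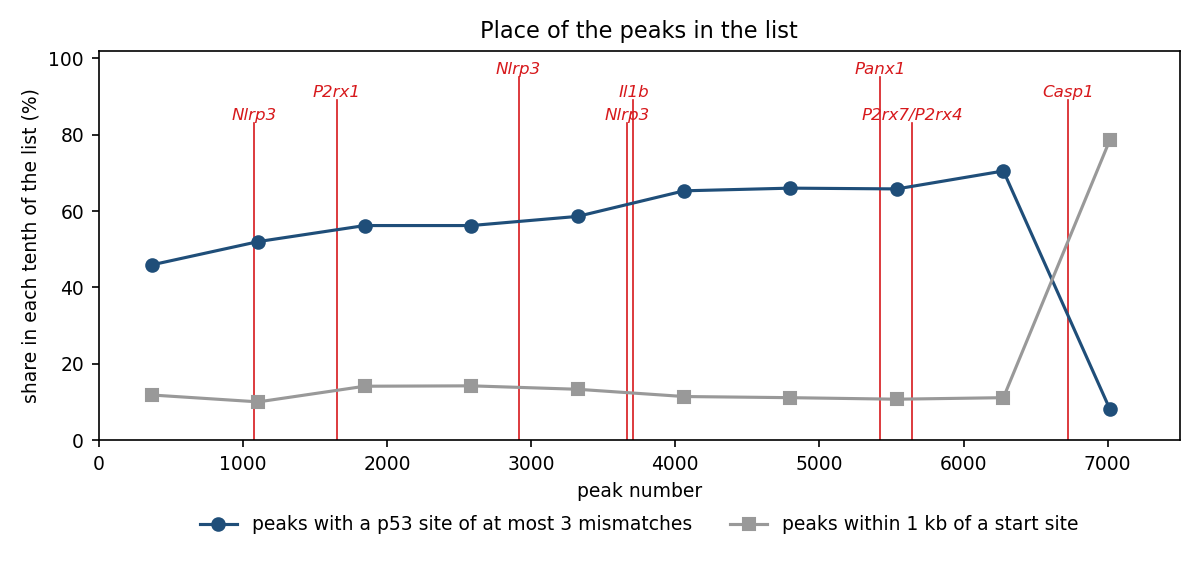
Place of the peaks of the gene set in the deposited list (peak number, from the largest gain of p53 binding after irradiation to the largest loss), with the share of peaks with a p53 site and of peaks within 1 kb of a TSS in each of 10 equal parts of the list (percent). The marked peaks run from number 1080 (*Nlrp3*) to 6725 (*Casp1*), with *P2rx7* at 5644.

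For scale, well-known p53 target genes had peaks close to their TSS in the same list. At *Cdkn1a*, which encodes the cell cycle inhibitor p21, peaks lay 49 bp and 739 bp from a TSS, with sites of 1 and 3 mismatches. At *Mdm2*, which encodes the ubiquitin ligase of p53, they lay 7 bp and 6978 bp away, with 3 and 1 mismatches. At *Bbc3*, which encodes the cell death protein PUMA, they lay 915 bp and 2312 bp away, with no site at either. Of these 6 peaks, 4 were in Group II, namely both at *Cdkn1a*, the farther one at *Mdm2* and the nearer one at *Bbc3*, and the other two were in Group I, as was the *P2rx7* peak. Over the whole list 2.17% of peaks were in Group II and 89.9% in Group I. The distance of 452 bp at *P2rx7* was within this range, as was its site of 3 mismatches. The *Panx1* peak (6695 bp, 3 mismatches) was within it too, and 12.3% of protein-coding genes had a peak as near as that one. The range thus does not single out *P2rx7*.

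RefSeq promoter windows of 300 bases (GRCm38.p6, letters alone) were searched in the same way. The 8 genes had 10 such windows, and 0 held a p53 site, which allows a share of up to 30% with so few windows, beside 1.38% of all windows. At *P2rx7* the peak and its site lay downstream of the TSS, beyond the end of these windows.

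Other genes of the same pathways were read from a list of 61 purinergic and inflammasome genes, all of which were found in the annotation. Of these, 38 (62.3%) had a peak within 100 kb and 6 (9.84%) within 10 kb, shares that stand beside 57.8% and 15.6% of protein-coding genes. By role, a peak within 100 kb was present for 3 of 4 other P2X channel genes, 5 of 8 P2Y receptor genes, 3 of 4 adenosine receptor genes and 6 of 8 ectonucleotidase genes, whose enzymes break down extracellular ATP. It was present for 1 of 4 other genes of ATP release, 9 of 12 inflammasome sensor genes, 4 of 5 adaptor and regulator genes, 4 of 5 caspase and gasdermin genes and 3 of 11 genes of the interleukin-1 family. These genes share some of their peaks, so the 38 genes had 54 different ones, and peak 6725 of *Casp1* was also counted for *Casp4* and *Casp12*.

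The 6 genes with a peak within 10 kb were *P2rx6*, *Adora3*, *Entpd3*, *Panx3*, *Txnip* and *Gsdmd*, and all 6 peaks were in Group I, as were 89.9% of all peaks. At *P2rx6*, a further P2X subunit, peak 1315 lay 2083 bp from the TSS in intron 2, with a site of 2 mismatches (aTgcaagctGagacatgccc) at chr16:17564102-17564121. At *Txnip*, whose product binds thioredoxin and can bind NLRP3, peak 2077 lay 2592 bp away with a site that matched at every position (agacaagttcaggctagcct) at chr3:96366559-96366578. At *Panx3*, a pannexin gene, the peak was 1401 bp upstream, and at *Gsdmd*, which encodes the pore-forming gasdermin D cut by caspase-1, it was 5014 bp upstream. Neither of these had a p53 site, nor did the peaks of the adenosine receptor gene *Adora3* (6882 bp) and the ectonucleotidase gene *Entpd3* (6383 bp). Among the 8 and the 61 genes, 1 (*P2rx7*) had a p53 peak within 1 kb of a TSS, beside 6.13% of protein-coding genes.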

How the data were processed

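The authors mapped the reads to mm9 and called p53 peaks against input DNA of the same cells; Bowtie 1.0.0 and MACS 1.4.1 are named in the submitters' processing notes. The deposited table gives a position and a number for every one of 7384 peaks and is pooled over the p53 libraries. How peaks of different libraries were merged was not given in the sources used here. The authors took gene annotations from UCSC for mm9, whereas GENCODE M1 was used here. The meaning of the peak number and the limits of Groups I to III were taken from the study's legend and group sizes. Starts were converted to count from 1, and the centre of each 100 bp interval was used.

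Distances ran from the centre to the nearest TSS of any GENCODE M1 transcript. Sites were searched on the mm9 (NCBIM37) sequence. The closest gene is given for all genes and for protein-coding genes. Copies were found with BLAST+ 2.17.0, counting hits of 80% identity or more across 100 bp or more, with a peak if 1 was centred within 150 bp of the copy. The site search was tested on simulated data. Promoter windows from RefSeq (GRCm38.p6) were used for their letters alone. Named genes were the 8 genes, the gene closest to each of their peaks, the other pathway genes with a peak within 10 kb, and *Cdkn1a*, *Mdm2* and *Bbc3* as known p53 targets. *Casp4* was named after its values were seen. The members and gene lists were chosen with earlier results of these data known. Scripts ran under Python 3.11.15 with pysam 0.24.0, NumPy 2.4.6, matplotlib 3.10.9 and samtools 1.23.1.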

Additional observations from a re-analysis of the deposited data

How the results depend on the processing

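The 8 peaks within 100 kb became 3 within 10 kb, 4 within 25 kb, 4 within 50 kb and 17 within 200 kb, and the 7 genes with a peak became 3, 4 and 4 within 10, 25 and 50 kb. With the first 3000 numbers of the list alone there were 3 peaks and 2 genes. Of the 7 peaks with a p53 site, 2 remained when at most 2 mismatches were allowed. The sites of these regions with a peak, 10 of 80, became 3 of 13 with at most 2 mismatches. With a spacer of 0 to 13 bases they became 20 of 1300, a larger count but a smaller share. Measured from the outermost TSS, the nearest peak lay at 550 bp for *P2rx7*, 8376 bp for *Panx1* and 22255 bp for *Nlrp3*. Of the other pathway genes, 6 had a peak within 10 kb and 21 within 50 kb, against 38. The other 19 counts stayed within 1.5 times those reported, and the other 13 distances were identical. No paired analysis was possible because there was 1 library per condition and the list holds no value of a single library. The deposited list gives no depth, so the absence of a peak, as at *Il18*, says that none was listed and not that p53 was not bound. Peaks and sites are not replicates, and no difference between irradiated and untreated cells could be tested.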

Other observations

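Copies of the peaks near other pathway genes differed in how many had a p53 peak. The peak near *Adora3* had 533 other copies in the genome, of which 1 (0.188%) had a peak, and the peak near *Entpd3* had 22, of which 0 did. The repeated sequence at *Il1b* and *Nlrp3* had a peak at 98.4% of its other copies. The *Adora3* and *Entpd3* peaks had no p53 site, and whether this accounts for the difference was not tested.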
